A study of Mus musculus with 177 samples.

Results

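Neurotrophins are secreted growth factors of the nerve growth factor family, and their receptors are found on neurons and also on smooth muscle, mesenchymal and other non-neuronal cells. The genes described here are Ntrk2, Ntrk3, Ngfr, Bdnf, Ntf3 and Sort1 (6 genes), which were chosen by name as ligands and receptors of that family, with a probe set annotated to exactly 1 gene as the condition for a value. Of the 6 genes, 5 had such a probe set, out of 19937 genes with a value in each tissue. Ntf3, the gene of neurotrophin 3, was not analysed here. Selection among probe sets of a gene went by the highest mean, which had no effect here because each of the 5 genes had 1 probe set. The set was proposed with the increase of Ntrk2 in lung already known, so its values in lung are given as a description of these arrays and not as independent support.

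The study exposed mice to low oxygen soon after birth and then reoxygenated them with different amounts of oxygen. All animals were C57BL/6 mice at postnatal day 7, and lung, brain and eye were measured on whole-transcript arrays. The hypoxia groups breathed gas with an oxygen fraction of 0.08 for 120 min, followed by 30 min in 21, 40, 60 or 100% oxygen, and are called H21, H40, H60 and H100 here. The normoxia groups breathed air, with an oxygen fraction of 0.21, for the same 120 min, followed by 30 min in 100% oxygen (N100) or 21% oxygen (N21). All 6 groups then spent 150 min in air before the organs were taken, so the arrays describe a time about 3 h after hypoxia ended. The arrays kept numbered 9, 9, 12, 11, 10 and 9 in lung, in the order H21, H40, H60, H100, N100 and N21. In the same order they numbered 9, 9, 11, 11, 9 and 9 in brain, and 9, 9, 9, 11, 9 and 9 in eye. Sex, read on the arrays from Xist and Y-linked genes, was uneven over the groups. Again in that order, lung arrays of females numbered 5, 7, 10, 6, 6 and 8, and of males 4, 2, 2, 5, 4 and 1. The design text counts 62 mice, and the labels do not say which arrays of different tissues came from 1 animal. Tissue was measured in bulk, so fewer cells of a type and less RNA per cell cannot be told apart.

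Values are log2 units as the authors deposited them, and a difference of 1 is a factor of 2. Tissues were normalized separately, with array medians of 6.25 in lung, 6.07 in brain and 6.35 in eye. Of the deposited arrays, 3 had the profile of a tissue other than their label's, all of them in H40 groups, and were left out. The array labelled lung H40 replicate 10 correlated at 0.986 with the mean brain profile and at 0.812 with the mean lung profile. Brain H40 replicate 7 had an eye profile and eye H40 replicate 9 a lung profile. All 3 had the array median of their labelled tissue, so their values are not on the scale of the tissue they resemble. Ntrk2 was 8.85 on the array labelled lung H40 replicate 10 (5.68 to 7.54 on the lung arrays kept, 9.15 to 9.81 in brain), 6.57 on brain H40 replicate 7 (6.30 to 7.29 in eye) and 6.01 on eye H40 replicate 9, where Sort1 was 8.53. Lung H21 replicate 1 also stood apart, with a correlation of 0.9467 with the mean lung profile, and the hypoxia minus normoxia differences in lung are also given without it. Markers placed the kept arrays in their labelled tissues: markers of type 2 alveolar cells averaged 11.39 to 11.93 over the lung arrays of the hypoxia groups and 11.52 to 11.9 over those of the normoxia groups. Neuron markers averaged 10.71 to 11.19 in hypoxia and 10.79 to 11.14 in normoxia brains, and lens markers 11.97 to 13.04 in hypoxia and 12.24 to 12.97 in normoxia eyes.

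Ntrk2 encodes TrkB, the receptor tyrosine kinase for BDNF and neurotrophin 4. Ntrk3 encodes TrkC, the receptor for neurotrophin 3, and Ngfr encodes p75NTR, which binds all neurotrophins and lacks a kinase. Bdnf encodes brain-derived neurotrophic factor, and Sort1 encodes sortilin, a sorting receptor that binds uncleaved proneurotrophins together with p75NTR. Binding of a neurotrophin brings Trk receptors together, which phosphorylate each other and recruit adaptors of the Ras, phosphoinositide 3-kinase and phospholipase C pathways. TrkB also exists in truncated forms without a kinase, which are abundant outside neurons. The single Ntrk2 probe set (10405633) does not separate full-length from truncated transcripts.

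In genome coordinates (GRCm38.p6) Ntrk2 lies on chromosome 13 from 58806472 to 59133970, Ntrk3 on chromosome 7 from 78179986 to 78581034, and Ngfr on chromosome 11 from 95568818 to 95587698. Bdnf lies on chromosome 2 from 109674700 to 109727043 and Sort1 on chromosome 3 from 108283974 to 108361519. The window before the transcript start of Ntrk2 is shown because Ntrk2 was the member whose lung values differed after hypoxia. It holds the 250 bases before the start in the RefSeq promoter table (GRCm38.p6, chr13:58806319-58806568, plus strand), and the annotated gene range begins inside it. Capitals mark GCGTG, one of the core sequences of hypoxia response elements, on either strand, so that CACGC marks a match on the minus strand.
Ntrk2: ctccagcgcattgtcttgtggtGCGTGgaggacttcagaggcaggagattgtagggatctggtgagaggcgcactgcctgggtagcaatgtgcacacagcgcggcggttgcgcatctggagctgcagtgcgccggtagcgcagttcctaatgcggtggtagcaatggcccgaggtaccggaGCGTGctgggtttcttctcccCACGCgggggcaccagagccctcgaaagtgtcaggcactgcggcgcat
The window held 3 GCGTG matches, at 228 to 224, 69 to 65 and 48 to 44 bases before the start, the last of them on the minus strand. Of 32851 windows of this length in the table, 28.2% held GCGTG at least once and 2.77% held it 3 times or more. ACGTG, the other core sequence, was not found in the Ntrk2 window and was present in 16.6% of all windows. TGACGTCA, the cAMP response element, and CACGTG, which contains ACGTG, were not found there either and were present in 1.55% and 6.02% of windows. The G and C content of the Ntrk2 window was 62.8%, against a median of 52.4% over all windows. The Ngfr window held 1 ACGTG and 1 GCGTG, while Bdnf had 7 windows, of which 2 held ACGTG and 2 held GCGTG. A match of this kind is a description of letters and was not tested as a binding site.

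Ntrk2 was the one member that differed in lung. In the 41 lung arrays of the hypoxia groups its lowest, median and highest values were 6.24, 6.95 and 7.54. In the 19 lung arrays of the normoxia groups they were 5.68, 6.10 and 7.11. All 41 hypoxia arrays lay above the normoxia mean of 6.23, yet the groups overlapped: 11 of 41 hypoxia arrays exceeded every normoxia array, and 11 of 19 normoxia arrays lay below every hypoxia array. The mean of the 4 hypoxia groups exceeded the mean of the 2 normoxia groups by 0.73 ± 0.08 (SE; 95% interval 0.56 to 0.90), a factor of 1.66, with a limma adjusted p of 4.3e-08. In this comparison 331 of 19937 genes were called, that is, had a Benjamini-Hochberg adjusted p under 0.05, which is 1.66% of genes (210 of them higher), and 1 of the 5 members was called. By p, Ntrk2 ranked 2 among all genes, and 9 genes, Ntrk2 included, had a change at least as large. With all deposited arrays kept the difference was 0.78 (limma adjusted p 4.8e-06). The lung array added there, H40 replicate 10, had a brain profile and Ntrk2 at 8.85, above every lung array kept. Without lung H21 replicate 1 the difference was 0.75 (limma adjusted p 6e-09).

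The level of Ntrk2 in lung differed little among the 4 oxygen concentrations used after hypoxia. H21 lungs had a lowest, median and highest value of 6.36, 7.07 and 7.48, H40 lungs 6.51, 7.04 and 7.29, H60 lungs 6.24, 6.98 and 7.54, and H100 lungs 6.42, 6.80 and 7.34. N100 lungs had 5.68, 6.16 and 6.43, and N21 lungs 5.87, 6.10 and 7.11. Every group after hypoxia therefore overlapped with N21, mainly through N21 replicate 2 at 7.11, while H100 and N100 overlapped only between 6.42 and 6.43. Group means were 7.02 ± 0.35 in H21, 6.95 ± 0.23 in H40, 6.98 ± 0.35 in H60, 6.89 ± 0.28 in H100, 6.14 ± 0.21 in N100 and 6.32 ± 0.41 in N21 (SD). From high to low the order was H21, H60, H40, H100, N21 and N100, and the 4 hypoxia means lay closer together than the SD within any of these groups.

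**Figure D1:**
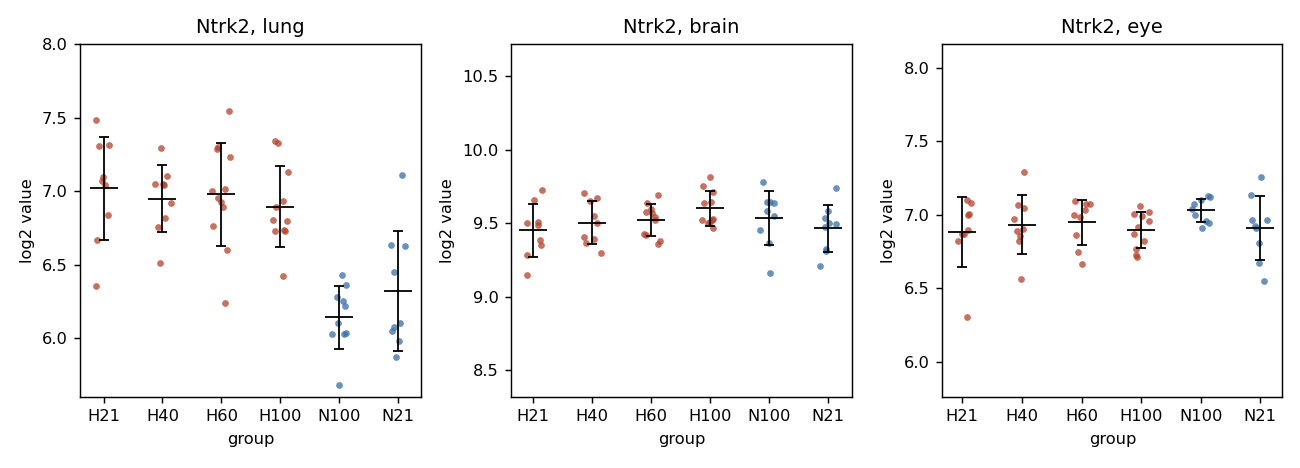
Log2 value of Ntrk2 (y axis) on every array kept, by group (x axis), in lung, brain and eye; red points are hypoxia groups, blue points normoxia groups, and the black bar and whiskers give mean and SD. All panels span the same number of log2 units. Lung means lie at 6.89 to 7.02 in the hypoxia groups and at 6.14 and 6.32 in N100 and N21, while brain means lie between 9.45 and 9.60 and eye means between 6.88 and 7.03 in all groups.

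Taken group by group, the differences were of similar size and fewer passed the test. H21 minus N21 was 0.70 ± 0.14 (limma adjusted p 0.023), a comparison in which 0.0502% of genes were called, and 1 of 5 members was among them. H100 minus N100, where both groups breathed 100% oxygen for 30 min, was 0.75 ± 0.13 (adjusted p 0.004), with 0.105% of genes called and 1 of 5 members. Those comparisons share no arrays. H40 minus N21 was 0.63 ± 0.14 (adjusted p 0.17), with 0.00502% of genes and no member called. For H60 minus N21 the difference was 0.66 ± 0.13 (adjusted p 0.074) and 0% of genes were called (695 at an unadjusted p under 0.05), although Ntrk2 ranked 1 by p. For H100 minus N21 it was 0.57 ± 0.14 (adjusted p 0.23), with 0.0201% of genes and no member called. The comparisons against N21 share the 9 N21 arrays. Without N21 replicate 2, the highest N21 array, H40, H60 and H100 minus N21 became 0.72, 0.75 and 0.67. They then passed the test, with limma adjusted p of 0.011, 0.003 and 0.0072. Of 60 lung arrays left out in turn, a call was gained with 1 for H40 minus N21, 5 for H60 minus N21 and 2 for H100 minus N21. The other removals left these comparisons without a call. The H21 minus N21 call was lost when any 1 of 10 lung arrays was left out, at differences of 0.64 to 0.69, and when all deposited arrays were kept (adjusted p 0.3).

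Oxygen given without hypoxia left no detectable difference. Ntrk2 in N100 minus N21 lungs was -0.18 ± 0.14 (95% interval -0.46 to 0.10, adjusted p 1), and 0% of genes were called, with 328 genes at an unadjusted p under 0.05. It ran from -0.24 to -0.08 with 1 array left out. Over the 4 hypoxia groups the fitted line from 21 to 100% oxygen gave a change of -0.11 ± 0.13 for Ntrk2 (95% interval -0.37 to 0.15, adjusted p 1), with 0% of genes called and 347 at an unadjusted p under 0.05. A p that misses the threshold does not show that the groups were alike, and the first interval still includes a decrease of 0.46.

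The labels state no processing batch, but the sample records fall into 3 runs by their order: an initial one that lists group after group, a short one that passes through the groups once more, and the remaining records. Later and first runs differed in 56.5% of genes in lung, by the same threshold, and Ntrk2 in lung was lower in the later ones by 0.27 ± 0.07 (later minus first -0.27, adjusted p 0.0015). In the first run, Ntrk2 had a lowest, median and highest value of 6.24, 7.07 and 7.54 in 25 hypoxia lungs, against 6.03, 6.25 and 7.11 in 13 normoxia lungs. In the later runs it had 6.60, 6.81 and 7.10 in 16 hypoxia lungs, against 5.68, 6.01 and 6.28 in 6 normoxia lungs, and these did not overlap. The difference was 0.66 in the first run alone (adjusted p 0.0051), 0.84 in the later runs alone (adjusted p 6.9e-05) and 0.75 with the run as a block (adjusted p 7.1e-10). N100 minus N21 for Ntrk2 was -0.40 in the first run alone and -0.02 in the later runs alone, neither called.

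**Figure D2:**
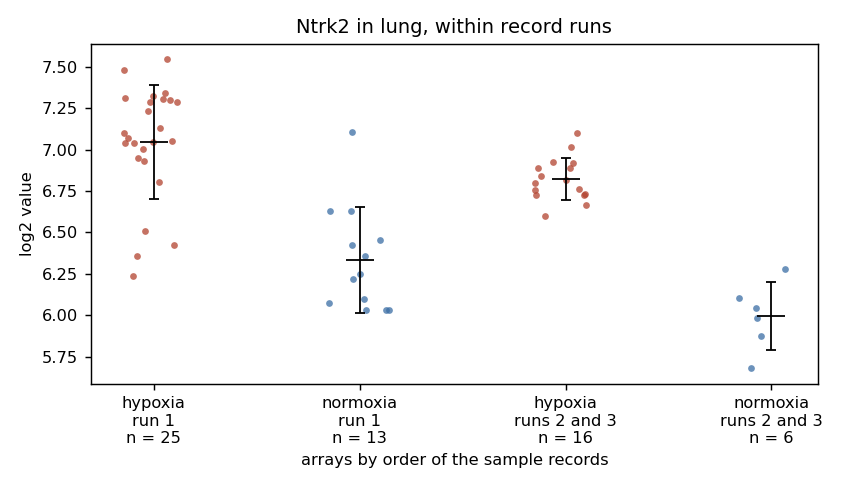
Log2 value of Ntrk2 in lung (y axis) for hypoxia (red) and normoxia (blue) arrays, in the first record run and in the later runs (x axis); black bars and whiskers are mean and SD. The mean was 7.04 in hypoxia and 6.33 in normoxia arrays of run 1, and 6.82 in hypoxia and 5.99 in normoxia arrays of runs 2 and 3.

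Ntrk2 did not differ detectably in brain or eye. In 40 hypoxia brains its lowest, median and highest values were 9.15, 9.52 and 9.81, against 9.16, 9.52 and 9.78 in 18 normoxia brains. In 38 hypoxia eyes they were 6.30, 6.94 and 7.29, against 6.55, 6.97 and 7.26 in 18 normoxia eyes. The ranges overlapped almost completely in both tissues, and the differences were 0.02 ± 0.05 in brain (95% interval -0.07 to 0.11) and -0.06 ± 0.05 in eye (95% interval -0.16 to 0.05). The difference in lung exceeded that in brain by 0.71 ± 0.09 (limma adjusted p 8.1e-09) and that in eye by 0.78 ± 0.09 (adjusted p 6.9e-11), in 1 fit of all tissues that tested the interaction itself. That fit took arrays of different tissues as separate, although some share an animal, because the labels do not link them. In those tests 0.451% and 0.396% of genes were called, and Ntrk2 was the 1 member called in each. Brain minus eye gave 0.08 ± 0.09 for Ntrk2, with 0.01% of genes and no member called. Since the tissues were normalized separately, the higher level of Ntrk2 in brain is given as values only.

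The other receptors did not pass the test in lung. Ntrk3 had a lowest, median and highest value of 5.42, 6.16 and 6.76 in hypoxia lungs, against 5.85, 6.22 and 6.43 in normoxia lungs, and the difference was -0.05 ± 0.06 (adjusted p 0.96). Ngfr had 5.99, 6.54 and 7.39 in hypoxia lungs, against 6.19, 6.55 and 6.81 in normoxia lungs, with a difference of 0.02 ± 0.06 (adjusted p 1). Hypoxia values surrounded the normoxia range on both sides for both receptors. Sort1 had 9.26, 10.02 and 10.27 in hypoxia lungs, against 9.81, 9.98 and 10.28 in normoxia lungs, with a difference of -0.02 ± 0.05 (adjusted p 1). The lowest hypoxia values of Ntrk3 and Sort1 and the highest of Ngfr and Bdnf came from a single array, lung H21 replicate 1. Without it the differences were -0.03 ± 0.05 for Ntrk3, 0.00 ± 0.06 for Ngfr, 0.00 ± 0.04 for Sort1 and 0.08 ± 0.05 for Bdnf, and none was called.

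Bdnf, the ligand of TrkB, also missed the threshold in lung. Its lowest, median and highest values were 5.89, 6.16 and 6.57 in hypoxia lungs, against 5.82, 6.08 and 6.56 in normoxia lungs. The difference was 0.09 ± 0.05 (95% interval -0.01 to 0.19, adjusted p 0.66), and 25 of 41 hypoxia arrays lay above the normoxia mean. H21 minus N21 gave 0.21 ± 0.08 for Bdnf (adjusted p 0.64; 0.17 ± 0.08 without lung H21 replicate 1), with 5.97, 6.21 and 6.57 in H21 lungs, against 5.82, 6.07 and 6.22 in N21 lungs. Bdnf in lung was higher by 0.19 ± 0.04 in the later record runs than in the first (adjusted p 0.00011), and 3 of 9 H21 and 4 of 9 N21 lung arrays were of the later runs. Among the 40% dimmest genes of lung and of eye were Bdnf and Ntrk3, so a small change in these would be hard to see there. In normoxia lungs Ntrk2 was about as dim, with a mean of 6.23, against 6.19 for Ntrk3 and 6.08 for Bdnf. Dimness was judged by the mean over all arrays of a tissue, which the hypoxia arrays raised for Ntrk2 in lung.

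**Figure D3:**
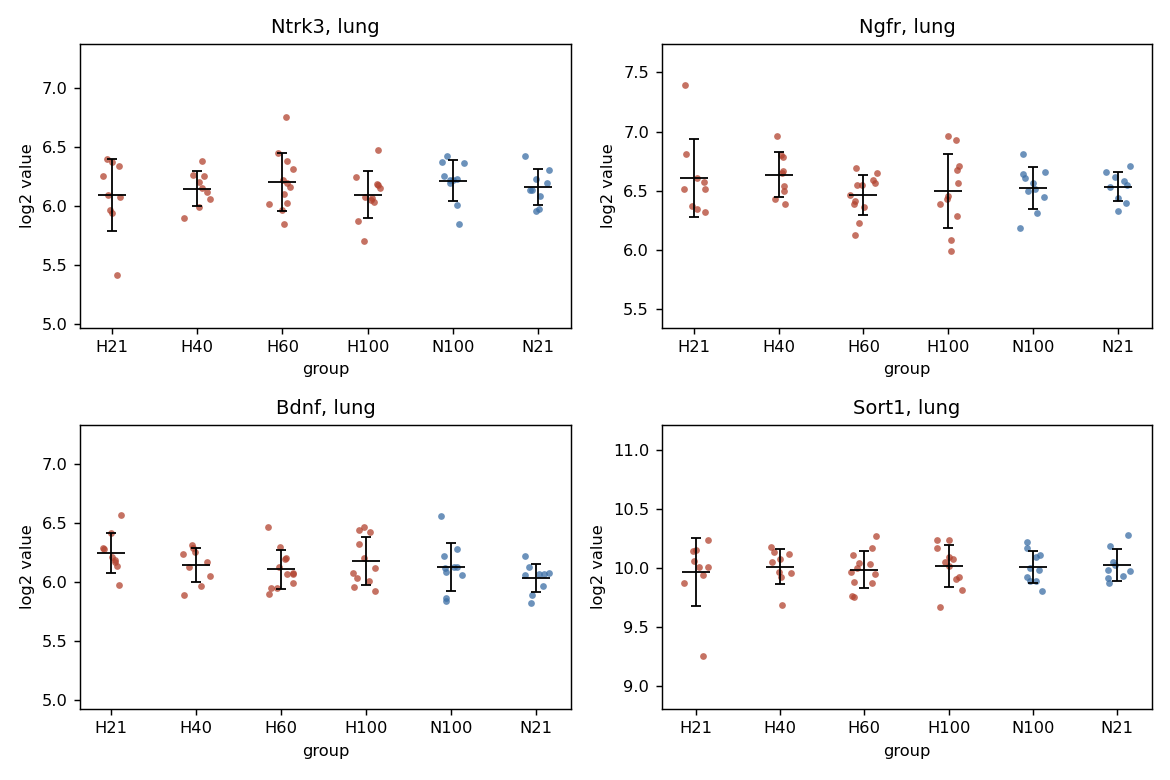
Log2 values of Ntrk3, Ngfr, Bdnf and Sort1 in lung (y axes) on every array kept, by group (x axis), with hypoxia groups in red, normoxia groups in blue, and mean and SD in black. The groups overlap for all 4 genes, and H21 holds the lowest Ntrk3 array at 5.42, the highest Ngfr array at 7.39 and the lowest Sort1 array at 9.26.

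In brain, where TrkB, TrkC and BDNF act on neurons, no member passed the test. Ntrk3 had a lowest, median and highest value of 7.48, 7.95 and 8.40 in hypoxia brains, against 7.76, 7.99 and 8.37 in normoxia brains (difference -0.05 ± 0.06). Ngfr had 6.18, 6.65 and 7.08 in hypoxia brains, against 6.20, 6.66 and 7.36 in normoxia brains (difference 0.02 ± 0.06). Bdnf had 6.15, 6.53 and 6.82 in hypoxia brains, against 6.31, 6.53 and 6.86 in normoxia brains (difference -0.04 ± 0.05). Sort1 ranged from 8.87 to 9.56 in hypoxia brains, against 8.89 to 9.48 in normoxia brains (difference -0.01 ± 0.05), and all 4 genes overlapped between the groups. Of all genes, 0.0853% were called in this comparison. By group, 0% were called in H21, H40, H60 and H100 minus N21, 0.01% in H100 minus N100, 0% in N100 minus N21 and 0% over the oxygen slope. The comparisons with no call had 265 to 1285 genes at an unadjusted p under 0.05. Between record runs 44.8% of genes differed in brain, and 3 of the 5 members were among them: later minus first, Ngfr was 0.27 ± 0.05 (limma adjusted p 3.4e-05), Bdnf -0.21 ± 0.04 (2.1e-06) and Sort1 0.14 ± 0.05 (0.016).

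The eye gave the same count, 0 of 5 members. Ntrk3 ranged from 5.72 to 6.64 in hypoxia eyes, against 5.90 to 6.46 in normoxia eyes, and Ngfr from 6.96 to 7.73 in hypoxia eyes, against 6.86 to 7.81 in normoxia eyes. Bdnf ranged from 5.61 to 6.14 in hypoxia eyes, against 5.72 to 6.09 in normoxia eyes, and Sort1 from 8.46 to 9.52 in hypoxia eyes, against 8.48 to 9.38 in normoxia eyes. All 4 differences lay between -0.01 and 0.01, well inside these ranges. In eye, 0.0853% of genes were called for hypoxia minus normoxia and 0.00502% for H21 minus N21. The share was 0% for H40, H60 and H100 minus N21, for H100 minus N100, for N100 minus N21 and for the oxygen slope, with 421 to 1734 genes at an unadjusted p under 0.05. H100 minus N21 for Ntrk3 in eye was 0.20 ± 0.08 (adjusted p 0.93), with values of 6.00 to 6.64 in H100 eyes, against 5.93 to 6.37 in N21 eyes.

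Over the 3 tissues, the 14 pairs of member and tissue other than Ntrk2 in lung had hypoxia minus normoxia differences between -0.06 and 0.09. Their 95% intervals ran from -0.17 at the lowest to 0.19 at the highest. Members other than Ntrk2 gave an unadjusted p under 0.05 in 1 of 32 limma tests in lung, 0 of 32 in brain and 2 of 32 in eye, and none was called. Ntrk2 in brain gave 0.14 ± 0.07 over the oxygen slope (unadjusted p 0.038, adjusted p 0.75).

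**Figure D4:**
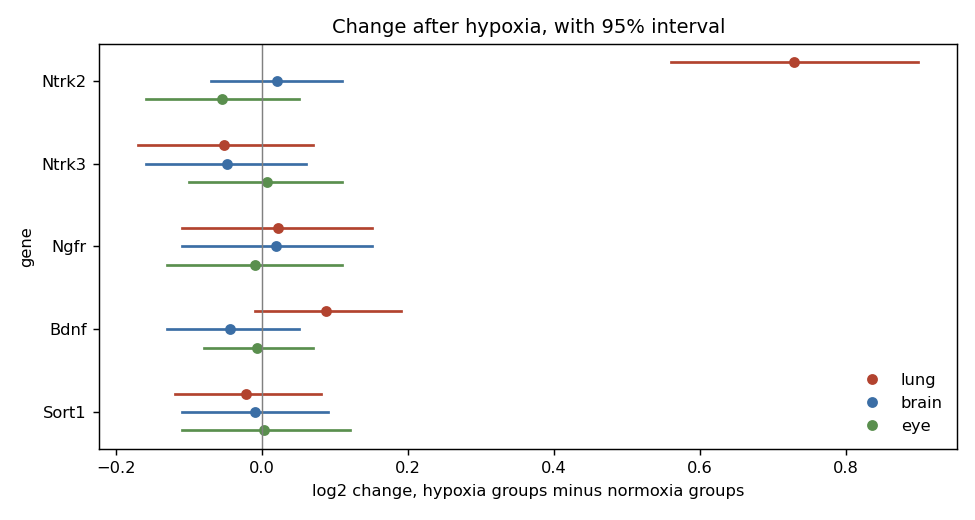
Log2 difference of the hypoxia groups minus the normoxia groups (x axis) for 5 genes (y axis) in lung (red), brain (blue) and eye (green); points are fitted differences and lines their 95% intervals. Ntrk2 in lung lies at 0.73 with an interval of 0.56 to 0.90, and the other 14 intervals all contain 0.

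Most other genes of the pathway did not pass the test in lung. For hypoxia minus normoxia, 1.66% of all genes in lung were called and 9% had an unadjusted p under 0.05. Among the other neurotrophins and sortilin-family receptors 5 of 7 listed genes were measured and 0 were called, with 1 at an unadjusted p under 0.05. Ntf5, the gene of neurotrophin 4, the second ligand of TrkB, had 6.29 ± 0.21 in hypoxia and 6.14 ± 0.19 in normoxia lungs (SD; difference 0.15 ± 0.06, adjusted p 0.25), and Sorcs1, a sortilin-related receptor, a difference of -0.03 ± 0.05. Of Trk adaptors and kinases, 21 of 25 were measured, 0 were called and 0 had an unadjusted p under 0.05, the largest differences being those of the adaptor Shc3 (-0.07 ± 0.06) and of the phospholipase Plcg1 (-0.06 ± 0.04). Of p75NTR partners and effectors, 11 of 15 listed names were measured, with 0 called and 0 at an unadjusted p under 0.05, and the kinase Mapk8 (-0.11 ± 0.07) and the gamma-secretase gene Psen2 (0.10 ± 0.05) had the largest differences.

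Pcsk7, a proprotein convertase of the secretory pathway, rose after hypoxia and was the only gene called in these lists. This single call is not above the share of 1.66% called over all genes in lung. Pcsk7 had 7.49 ± 0.12 in hypoxia and 7.35 ± 0.11 in normoxia lungs (SD), a difference of 0.14 ± 0.04 (limma adjusted p 0.03), among 11 measured of 13 genes that process or degrade proneurotrophins. Of those 11 genes, 3 had an unadjusted p under 0.05 in the limma test, against 9% of all genes in lung. Their differences ran from -0.10 to 0.20, so Pcsk7 was not the largest. The median difference of those 11 genes was 0.08, against 0.01 over all genes. Activity and TrkB response genes, 18 of 19 measured, had 0 called, 2 at an unadjusted p under 0.05 and a median of -0.01. The largest among them were Dusp6, a phosphatase induced by ERK signalling, at 0.16 ± 0.05 (adjusted p 0.1), and the signalling inhibitor Spry2 at -0.14 ± 0.08. The GDNF family, another group of neurotrophic ligands and receptors, had 9 of 9 genes measured, 0 called and 1 at an unadjusted p under 0.05, with Gfra2 at -0.19 ± 0.09 and Gfra1 at 0.10 ± 0.05. The median difference in lung was 0.00 for the Trk adaptors and for the other neurotrophins and receptors, and 0.03 for both the p75NTR partners and the GDNF family. In brain and eye none of the 6 lists held a called gene, and 0.0853% of all genes were called in each tissue. An unadjusted p under 0.05 was reached by 3.18% of all genes in brain and 5.02% in eye. In brain 1 gene of these lists reached it, in the GDNF family (Ret, -0.12 ± 0.06). In eye 3 Trk adaptors were past it, with Gab1 at 0.15 ± 0.05 the largest, and 3 response genes, with Mef2c at -0.20 ± 0.09 and Fos at 0.15 ± 0.07 the largest.

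Of the marker genes of lung cell types a few were called between hypoxia and normoxia lungs, where 1.66% of all genes were called and 55.8% had a difference above 0. The mean over 10 smooth muscle and pericyte markers was 9.05 to 9.54 in hypoxia lungs (median 9.39), against 9.03 to 9.44 in normoxia lungs (median 9.24), with 10 of 10 genes above 0 and 2 called (Tagln and Cspg4). The mean over 8 neutrophil markers was 5.99 to 7.88 in hypoxia lungs (median 6.49), against 5.72 to 7.28 in normoxia lungs (median 6.08), with 8 of 8 above 0 and 1 called (Mmp8). Fibroblast markers ran from 9.67 to 11.03 in hypoxia lungs, against 9.83 to 10.99 in normoxia lungs, with 3 of 9 above 0 and Fgf10 called lower. Neuron markers were low, at 5.52 to 5.96 in hypoxia and 5.60 to 5.93 in normoxia lungs, and Schwann cell markers ran from 5.79 to 6.28 in hypoxia and from 5.85 to 6.28 in normoxia lungs. Of the neuron markers 4 of 10 lay above 0 and 1 was called higher in hypoxia lungs, Stmn2 (0.30 ± 0.07, limma adjusted p 0.0072). Of the astrocyte markers 4 of 9 lay above 0 and 1 was called higher, Aldh1l1 (0.22 ± 0.05, limma adjusted p 0.0043). With a list's mean as a covariate, Ntrk2 in lung differed by 0.63 (smooth muscle and pericyte, adjusted p 0.00016), 0.69 (neutrophil, 4.4e-06), 0.77 (fibroblast, 6.6e-10) and 0.70 (endothelium, 1.7e-09), against 0.73 without a covariate. With the mean of the Müller glia markers, the list most correlated with Ntrk2 in lung, it was 0.55 (adjusted p 9.6e-07). A covariate made from the same arrays does not measure cell numbers, and the part of cell composition in the difference was not tested.

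The genes whose values followed Ntrk2 most closely across arrays differed by tissue. Over the 60 lung arrays, with group means removed, Pearson's r was 0.79 for Ogn, which encodes the matrix proteoglycan osteoglycin, 0.76 for Fhl5, a LIM-domain cofactor gene, and 0.74 for Tcim. With the means of record runs removed as well, r was 0.77, 0.80 and 0.76. Fhl5 was itself called higher in hypoxia than in normoxia lungs (1.37 ± 0.18, limma adjusted p 1.3e-06), as was Tcim (0.24 ± 0.07, adjusted p 0.04), and Ogn was not (0.35 ± 0.12, adjusted p 0.14). The r of Ntrk2 in lung with the endothelial marker mean was 0.53, with the fibroblast mean 0.43, with the smooth muscle and pericyte mean 0.27, with the neuron mean 0.19 and with the Schwann cell mean -0.12. Among all marker lists the highest r was 0.66, with 8 markers of Müller glia, a retinal cell type; in lung 1 of these was called, Glul, which encodes glutamine synthetase (0.47 ± 0.06, adjusted p 4.7e-07). The points share arrays, processing and RNA quality, so these values describe likeness only.

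In brain the genes most like Ntrk2 were Cacna1b, a neuronal calcium channel gene (r 0.85 over 58 arrays), Nisch (0.83) and Wdr7 (0.83). Among the receptors, Ntrk2, Ntrk3 and Sort1 followed one another there: Ntrk2 had an r of 0.70 with Sort1 and of 0.62 with Ntrk3, and Ntrk3 had 0.51 with Sort1. In lung the same 3 pairs had 0.02, 0.22 and 0.26, and in eye 0.30, -0.16 and 0.20. Ngfr followed the other receptors less closely in brain, with an r of 0.19 with Ntrk2, -0.1 with Ntrk3 and 0.3 with Sort1. Ntrk3 in brain was most like the microtubule-associated protein genes Map2 (0.81) and Map1b (0.80) and the neuron navigator gene Nav1 (0.80). Sort1 in brain was most like Slc6a17 (0.77), a transporter gene of synaptic vesicles, Wdr7 (0.76) and Adgrb1 (0.76). The closest genes to Ngfr in brain were Wnt8b (0.73), Nrm (0.72) and E2f1 (0.70). For Bdnf in brain the r of its 3 closest genes, Rslcan18, Ccr9 and Igfn1, was 0.80, 0.77 and 0.76, and 0.55, 0.43 and 0.50 once run means were removed as well. Among the members, Bdnf and Ngfr in brain had an r of -0.42, and -0.05 with run means removed.

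In eye Ntrk2 was most like Chrna5 (0.79 over 56 arrays), a nicotinic receptor subunit gene, Myo16 (0.75) and the opioid-related receptor gene Oprl1 (0.74). Sort1 in eye was most like Dcaf5 (0.83), Slc25a23 (0.82) and Dnajc5 (0.81), a synaptic vesicle chaperone gene. The genes closest to Ngfr were Tex261 (0.75), Brap (0.74) and Hdac10 (0.74), those closest to Ntrk3 were Gk5, Ano1 and Nr3c2 (0.72 each), and those closest to Bdnf were Hlx (0.66), St8sia5 (0.65) and Dusp15 (0.61). In lung the closest genes to Sort1 were Ago1 (0.79), Slc26a9 (0.78) and Slc1a1 (0.76). Those to Ngfr were Piwil2 (0.76), Shank1 (0.76) and Adcyap1r1 (0.75), those to Bdnf Wdr45, Nfasc and Enho (0.76 each), and those to Ntrk3 Gramd1b (0.73), Adam23 (0.68) and Herc3 (0.65). None of these 12 lung genes was called in hypoxia minus normoxia. For Bdnf in lung, the r with Wdr45, Nfasc and Enho was 0.60, 0.61 and 0.65 once run means were removed as well.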

How the data were processed

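Lung, brain and eye RNA was measured on Affymetrix Mouse Gene 1.0 ST arrays. The authors deposited log2 values after RMA, which corrects background, equalizes array distributions and summarizes probes, per the submitters' processing notes (version not given in the sources used here). The design text names solid tissue, whereas a kit for blood RNA stands in the labels' protocols. The number of arrays limits precision.

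Among the 34760 probe sets, 21640 carried 1 gene symbol in the platform annotation, 1321 carried several and 11799 none. RefSeq matched 21553, and 1 probe set per gene left 19937 genes. Groups came from sample titles. limma 3.58.1 in R 4.3.3 (lmFit, eBayes, two-sided; data.table, version 1.17.8) fitted all 6 groups of a tissue together, with Benjamini-Hochberg adjustment over all genes and a threshold of 0.05; tissue differences came from 1 fit of all arrays. The fits were tested on simulated data with independent values on each array. Those data held no record runs, so the test does not cover the differences between runs seen here. Members, gene lists and the 3 arrays left out were chosen with earlier results of these data known. Named were all members, genes called in a pathway list (otherwise its 2 largest changes, given for lung and in part for brain and eye), and per tissue the 3 genes most correlated with each member, without predicted genes, small RNAs and chemosensory receptors. Fibroblast, neutrophil, smooth muscle, endothelial and Müller glia covariates and the later record runs alone were added after the data were seen. Arrays were taken as separate animals within a group and tissue, as the design text's randomized mice imply; the p-values measure the spread between arrays.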

Additional observations from a re-analysis of the deposited data

Results flagged for a closer look

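Single arrays lay far from the rest of their group in 6 of 65 combinations of gene, tissue and group tested for a gap (9.23%), where chance gives about 1 in 20. Lung H21 replicate 1 accounted for 3 of the 6, with Ntrk3 at 5.42 (next lowest 5.94), Ngfr at 7.39 (next highest 6.81) and Sort1 at 9.26 (next lowest 9.87). That array also had the lowest correlation with the mean lung profile among the lung arrays kept, at 0.9467. In lung N100 replicate 10, Ntrk2 was 5.68, against 6.03 in the next lowest N100 array. In brain N100 replicate 9, Ngfr was 7.36, against 6.68 in the next highest. In eye H21 replicate 5, Ntrk2 was 6.30, against 6.82 in the next lowest.

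The hypoxia minus normoxia difference of Ntrk2 differed between tissues in a test of the interaction, by 0.71 for lung minus brain and by 0.78 for lung minus eye.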

How the results depend on the processing

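The Ntrk2 difference between hypoxia and normoxia lungs kept its direction and its call under all 15 other settings (0.55 to 0.84) and with each of 60 lung arrays left out (0.70 to 0.78), and its lung minus brain and lung minus eye differences under all 4 settings run. The setting without the dimmest genes kept Ntrk2 by its mean over all lung arrays, hypoxia arrays included. Another setting had sex as a covariate, and 320 genes were called there for hypoxia minus normoxia in lung. Single-group comparisons depended on settings. For H21 minus N21 the call was lost, with 0 members called, with all arrays kept (0.697), in record run 1 alone (0.516), with every probe set tested (0.697), with only the groups compared in the fit (0.697), and with the smooth muscle and pericyte (0.601), neutrophil (0.651) or Müller glia (0.460) covariate. The H100 minus N100 call was lost, with 0 members called, with all arrays kept (0.754), in record run 1 alone (0.812), in later runs alone (0.797) and with the smooth muscle and pericyte covariate (0.652). For H60 minus N21 a call was gained, with 1 member called, with the record run as a block (0.652), in later runs alone (0.837), with array quality weights (0.618), without the dimmest genes (0.657) and with the fibroblast covariate (0.700). H100 minus N21 gained one with the run as a block (0.578) and in later runs alone (0.775), and H40 minus N21 in later runs alone (0.830), each with 1 member called. With 1 array left out, differences from N21 ran from 0.64 to 0.80 for H21, 0.57 to 0.72 for H40, 0.60 to 0.75 for H60 and 0.52 to 0.67 for H100, with 0 to 1 members called. By design, fewer arrays entered the single runs and the fits of only the groups compared. With every probe set tested, the adjustment ran over 34760 probe sets instead of 19937 genes. With all arrays kept, the lung array added was H40 replicate 10, which had a brain profile and Ntrk2 at 8.85. In both of these settings the H21 minus N21 difference itself stayed at 0.697. Otherwise the cause of these changes was not tested. No member outside lung was called under any setting; differences near 0 changed sign in some. Over all genes, hypoxia minus normoxia in lung called 331 genes, against 95 with all arrays kept, 504 with the run as a block, 23 in run 1 alone, 38 in later runs alone, 834 with quality weights, and 52 with the smooth muscle covariate and 0.792% of genes, against 1.66%, with the neutrophil covariate.

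Arrays with the same replicate number in different groups shared some variation, with a mean correlation of deviations of 0.16 in lung, 0.11 in brain and 0.08 in eye, against -0.01 in each tissue for different numbers, but not in every pair: 55.4% of pairs in lung, 54.5% in brain and 39.7% in eye had one over 0.1, and 12 of 60, 12 of 58 and 15 of 56 arrays correlated best with their own number. Group means, but not run means, were removed for these deviations. Low replicate numbers belonged to the first record run and high ones mostly to the later runs. Variation shared by number therefore cannot be told apart from the differences between runs. With a replicate block the Ntrk2 difference in lung was 0.736 (limma adjusted p 7.2e-08), and 417 genes were called. The block changed no call of a member.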
